A study of Rattus norvegicus with 6 samples.

Results

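Kidney tubule cells that are injured switch on a small set of transcripts whose proteins are measured in tissue or urine as markers of tubule damage. The 10 genes described here are Havcr1, Spp1, Gdf15, Lcn2, Clu, Krt8, Krt18, Vim, Cd44 and Timp1, followed in the renal cortex of male rats of the Sprague-Dawley strain on Agilent arrays, on which RNA labelled with the dye Cy3 is hybridised to oligonucleotide probes. Members were the non-control probes whose accession matched 1 of these genes, which gave 19 of 61537 probes, and 10 of the 15645 genes that could be named. Of the 19, 16 passed the detection filter, under which a probe must be well above background in every animal of either group, and every gene had at least 1 such probe. The 3 probes that did not pass all belong to Cd44.

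The 6 animals were bought at 5 weeks of age and formed 2 groups of 3, with 1 array per animal. The control group received corn oil, the vehicle, and the other group monuron, a phenylurea herbicide, at 200 mg/kg/day, each for 4 weeks. All animals ate the same basal diet. The comparison asks how the transcripts of the cortex differ after repeated dosing with the herbicide. The groups were hybridised on separate slides and scanned on separate days, so slide and treatment cannot be told apart in any value below.

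As background, kidney injury molecule 1, the product of Havcr1, is a surface receptor through which damaged proximal tubule cells take up dying neighbours, and its ectodomain is shed into urine. Osteopontin (Spp1), growth differentiation factor 15 (Gdf15), lipocalin 2 (Lcn2, also called NGAL), clusterin (Clu) and the metalloproteinase inhibitor TIMP-1 (Timp1) are secreted. CD44 is a receptor for hyaluronan and osteopontin, and keratins 8 and 18 and vimentin build the intermediate filaments of epithelial and mesenchymal cells. Vimentin and CD44 are known from tubule cells that lose their differentiated form and regenerate.

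Each array detected 60.9% to 70.4% of its non-control probes well above background, 0 spots were saturated, and the correlation between any pair of arrays over the 41125 tested probes lay between 0.986 and 0.994. Of these probes 342 were called higher with monuron (0.832%) and 161 lower (0.391%) at an adjusted p under 0.05, and 10.4% were higher and 7.09% lower at an unadjusted p under 0.05. Without scaling the counts were 435 and 78, and with scaling on spike-in controls 403 and 28786. A level below is the log2 ratio of a probe's processed signal to the 75th percentile of its array, so that a level of 0 lies at that percentile. Levels of different probes are not compared with each other. Markers of the labelled tissue were present: 12 of 12 genes of proximal tubule segments S1 and S2 and 10 of 10 podocyte genes passed the detection filter. Of all genes that could be named, 12072 of 15645 passed, so passing alone does not single out the kidney. The tissue is a mixture of cells, so more cells of a type and more RNA per cell cannot be told apart.

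Among the 10 genes, 3 rose with monuron and 0 fell. With arrays scaled on spike-in controls, which shifted the median of all probes by -0.50, the same 3 were called higher and 3 others lower, namely Vim, Cd44 and Timp1. Havcr1 rose 13.4-fold, Gdf15 2.70-fold and Spp1 2.15-fold. The other 7 genes did not pass the threshold, although Krt8 lay next to it. The log2 fold changes of the brightest probes were above 0 in all 10 (in 6 of 10 under spike-in scaling), beside 53.1% of genes with a symbol, with a median log2 fold change of 0.58, beside 0.01 over the 12072 genes with a symbol. Of those genes 1.10% were called higher and 0.480% lower. The groups did not overlap, with monuron above, in 8 of the 10 genes, beside 15.7% of all genes with a symbol, and 12.0% had monuron below. None of the 10 was lower with monuron at an unadjusted p under 0.05 in limma, and 7 were higher at that level, beside 10.4% of all genes with a symbol higher and 7.71% lower.

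**Figure D1:**
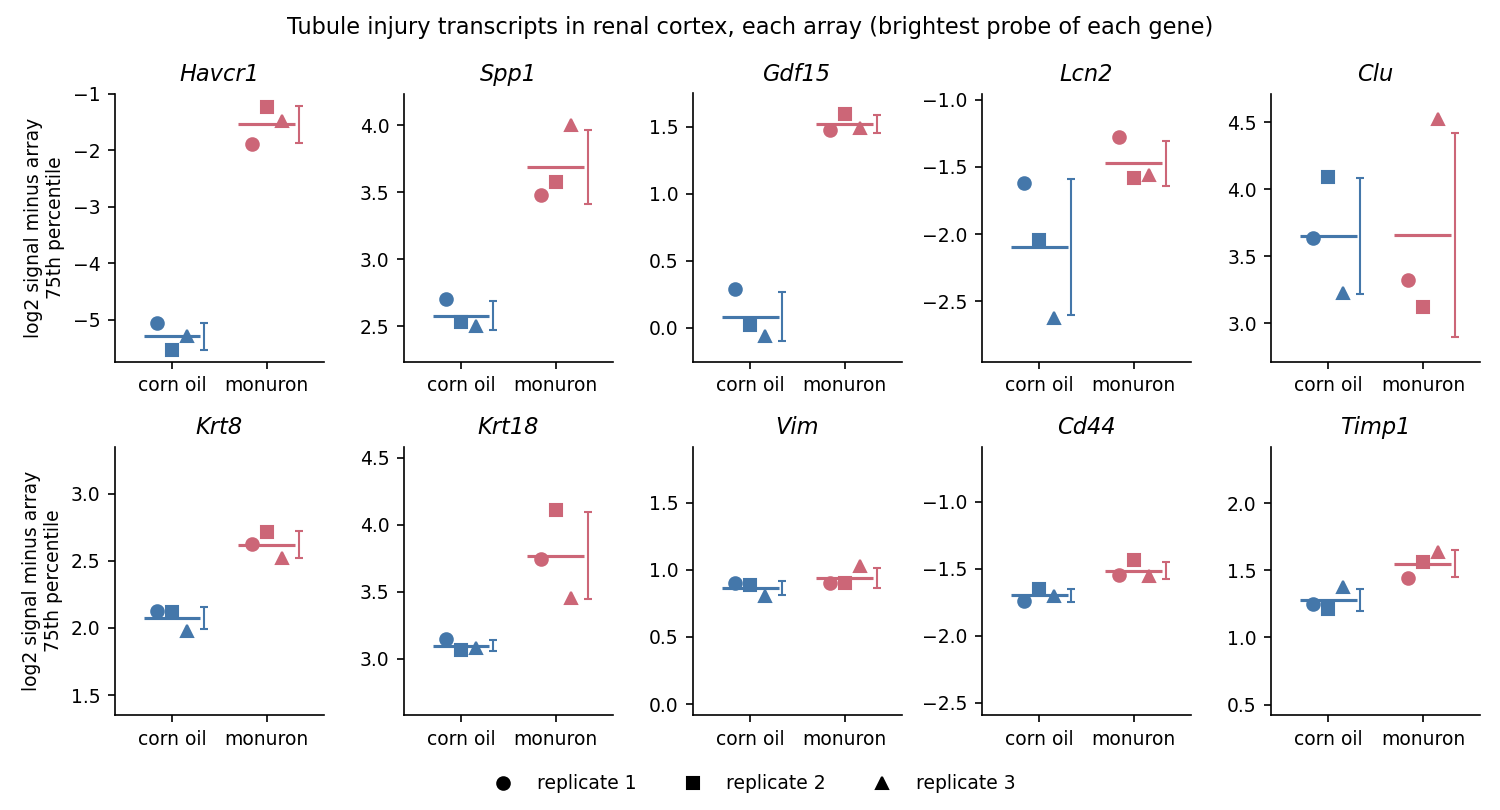
Each panel plots 1 gene, with the log2 level on the y axis (each panel has its own range) and the 2 groups on the x axis. Points are arrays, horizontal lines are group means and the bars beside them are SD over 3 arrays. Havcr1, Gdf15 and Spp1 are far apart between the groups, Clu and Vim overlap, and Clu is widest within the monuron group.

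Havcr1, the surface receptor, was faint in corn oil cortex and clearly measured in every monuron animal. Its levels were -5.05, -5.53 and -5.29 in corn oil replicates 1 to 3 and -1.89, -1.24 and -1.49 in monuron replicates 1 to 3. The groups were far apart: the lowest monuron animal lay 8.92-fold above the highest corn oil animal. As processed signal, before scaling, the corn oil spots read 27, 18 and 21 units and the monuron spots 248, 387 and 310. The spot of corn oil replicate 2 was not well above background and those of the other 5 arrays were. The mean level was -5.29 ± 0.24 with corn oil and -1.54 ± 0.33 with monuron (SD, n = 3 each). The log2 fold change was 3.75 ± 0.20 (SE), a 13.4-fold rise with a 95% interval of 9.53 to 19.0 and an adjusted p of 0.00708. With median spot signals, normexp background correction with an added offset of 50 units and quantile normalization, it was 2.17, or 4.49-fold, outside that interval. The size of the rise thus varied with the processing, and the step behind the lower value was not tested. By size of rise the probe stood at rank 10 of the 41125. Against the corn oil mean the single monuron animals stood at 10.5-fold, 16.6-fold and 13.9-fold. Without monuron replicate 3 the adjusted p was 0.0520 and the log2 fold change 3.72, and with corn oil replicate 3 and monuron replicate 1 both left out, which are highest in the liver transcript Alb, they were 0.137 and 3.93.

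The named probes closest to Havcr1 in change from the corn oil mean were found by the root mean square difference over the 6 arrays. Each log2 level was taken from its probe's corn oil mean. Of 20929 probes, the 5 with the smallest values belonged to Alox15, a lipoxygenase gene (0.58), Gtse1, a cell cycle gene (0.64), Abcb1b, an efflux pump gene (0.65), Vxn (0.86) and Mogat2, an acyltransferase gene (0.89). After quantile normalization the values were 0.56, 0.49, 0.65, 0.83 and 0.87, which placed Gtse1 at rank 1 and Vxn and Mogat2 at ranks 5 and 6. The corn oil mean of Havcr1 lies near background, and Gtse1 did not exceed background clearly in any corn oil animal, so no order is read from these values. Nor do they show a shared order of animals: Alox15 was highest in monuron replicate 1, where Havcr1 was lowest among the monuron animals.

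Gdf15 encodes a secreted cytokine of the TGF-beta superfamily that cells release under stress, and it rose by almost the same amount in every monuron animal. The brighter of its 2 probes had levels of 0.29, 0.02 and -0.06 in corn oil replicates 1 to 3 and 1.47, 1.59 and 1.49 in monuron replicates 1 to 3. The groups did not overlap, and the gap between them was 2.27-fold. The rise was 2.70-fold (95% interval 2.24 to 3.25, log2 fold change 1.43 ± 0.11, adjusted p = 0.0100). The second probe gave 2.63-fold (adjusted p = 0.0102). The SD among monuron animals was 0.07 for the first probe and 0.04 for the second, against 0.18 and 0.19 among corn oil animals. The call was lost without monuron replicate 1, 2 or 3 (adjusted p = 0.0605, 0.0630 and 0.0612), with the log2 fold change between 1.38 and 1.46, and with the Alb-rich arrays, corn oil replicate 3 and monuron replicate 1, left out (0.145).

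Spp1, the gene of osteopontin, a secreted matrix protein that binds integrins and CD44, had its highest value in monuron replicate 3. Its levels were 2.71, 2.53 and 2.50 with corn oil and 3.48, 3.58 and 4.0 with monuron. The groups did not overlap, and the lowest monuron animal was 1.71-fold above the highest corn oil animal. Spp1 rose 2.15-fold (95% interval 1.66 to 2.79, log2 fold change 1.11 ± 0.15, adjusted p = 0.0405). Leaving out any single array took the adjusted p to between 0.0704 and 0.138, with the log2 fold change between 0.95 and 1.21. The lowest of these fold changes was the one without monuron replicate 3.

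**Figure D2:**
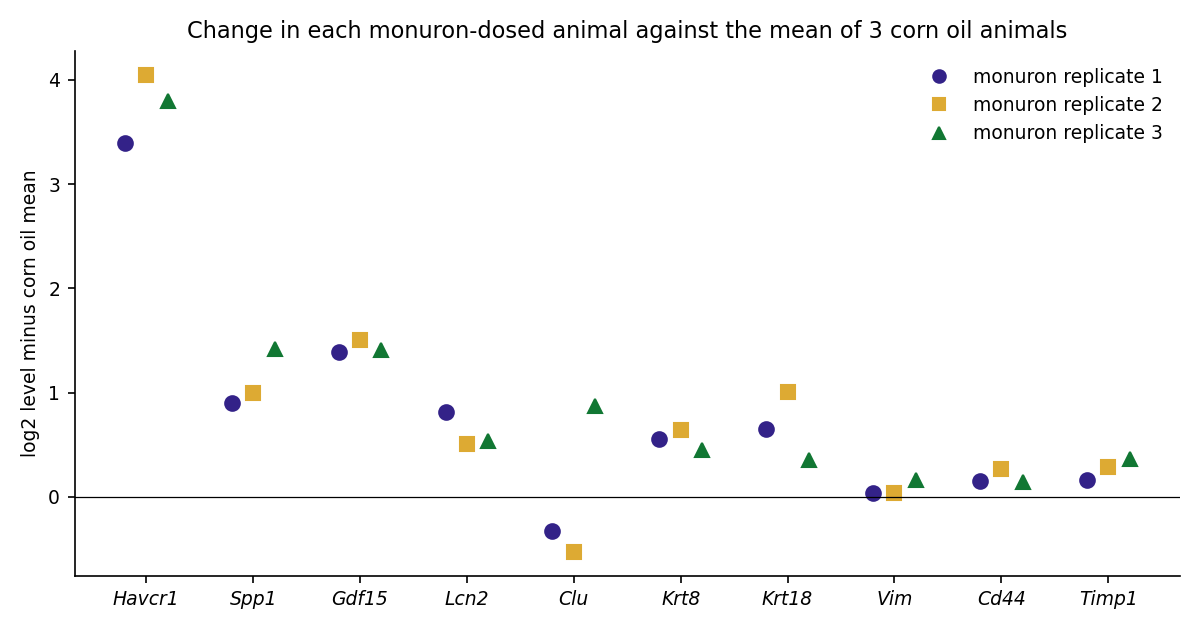
The y axis is the log2 level of each monuron-dosed animal minus the mean of the 3 corn oil animals, for the brightest probe of each gene on the x axis, and symbols mark the animals. Havcr1 lies between 3.39 and 4.05, the Gdf15 values sit close together, and Clu has 2 animals below 0 and 1 above.

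The monuron animals did not keep 1 order across the genes, as the plot of single animals shows. Monuron replicate 2 was highest for 5 genes (Havcr1, Gdf15, Krt8, Krt18 and Cd44), replicate 3 for 4 (Spp1, Clu, Vim and Timp1) and replicate 1 for Lcn2. Among the secreted products, Gdf15, Lcn2 and Spp1 thus had their highest values in 3 different animals. For Gdf15, Vim and Cd44, however, the monuron animals spanned only 1.09-fold each, too little to rank them. The faintest passing Cd44 probe was highest in monuron replicate 1. Replicate 3 was the lowest of the monuron animals for Krt8 and Krt18.

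Upstream sequence is shown for the 3 genes that rose and for the keratin pair, whose products assemble with each other, so that the motif matches given after it can be seen in place. Each run holds the 250 bases before the gene's start in RefSeq, build GRCr8, 5′ to 3′ on the gene's strand, with motif matches in capitals. The windows are chr10:31629528-31629777 on the plus strand for Havcr1, chr14:5619805-5620054 on the minus strand for Spp1, chr16:18839015-18839264 on the plus strand for the downstream of 2 starts of Gdf15, chr7:135010340-135010589 on the minus strand for Krt8 and chr7:135035918-135036167 on the plus strand for Krt18.
Havcr1: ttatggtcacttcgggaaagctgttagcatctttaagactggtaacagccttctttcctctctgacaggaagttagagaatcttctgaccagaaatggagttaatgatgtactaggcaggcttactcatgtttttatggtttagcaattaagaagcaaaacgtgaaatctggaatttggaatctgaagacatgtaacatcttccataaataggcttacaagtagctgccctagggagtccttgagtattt
Spp1: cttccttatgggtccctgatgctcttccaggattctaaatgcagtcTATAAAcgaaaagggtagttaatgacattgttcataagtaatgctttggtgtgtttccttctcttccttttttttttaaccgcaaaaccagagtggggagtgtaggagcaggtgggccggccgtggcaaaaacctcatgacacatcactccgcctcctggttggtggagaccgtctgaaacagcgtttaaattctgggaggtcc
Gdf15: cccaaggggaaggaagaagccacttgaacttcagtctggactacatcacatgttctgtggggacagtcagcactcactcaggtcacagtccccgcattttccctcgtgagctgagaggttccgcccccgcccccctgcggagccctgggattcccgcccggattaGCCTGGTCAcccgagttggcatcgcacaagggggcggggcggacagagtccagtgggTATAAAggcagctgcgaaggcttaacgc
Krt8: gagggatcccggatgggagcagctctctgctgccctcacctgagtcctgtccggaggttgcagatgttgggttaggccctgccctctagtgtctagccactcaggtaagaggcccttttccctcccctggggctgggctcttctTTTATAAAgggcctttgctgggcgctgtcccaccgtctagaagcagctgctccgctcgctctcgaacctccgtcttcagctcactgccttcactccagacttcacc
Krt18: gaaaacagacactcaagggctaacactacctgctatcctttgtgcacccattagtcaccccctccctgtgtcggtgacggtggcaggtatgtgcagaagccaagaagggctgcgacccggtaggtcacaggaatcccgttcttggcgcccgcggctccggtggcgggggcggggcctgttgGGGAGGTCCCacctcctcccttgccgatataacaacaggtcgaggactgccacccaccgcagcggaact

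The table held windows of 9 of the 10 genes, all but Clu, and 2 for Gdf15. They were searched on both strands for 8 motifs, beside 33469 windows of the same length over all genes. The antioxidant response element core TGACNNNGC, bound by NRF2, lies 85 to 77 bases before the downstream start of Gdf15, and 10.1% of all windows hold it. Cd44 and Timp1 also have 1 match each. The TATA box TATAAA occurs in 12.9% of windows. It lies 28 to 23 bases before that Gdf15 start, 204 to 199 before the start of Spp1 and 104 to 99 before that of Krt8, where it overlaps a match on the other strand, and Vim has a match too. A site of the NF-kB kind, held by 6.33% of windows, lies 69 to 60 bases before the start of Krt18 and also occurs in Lcn2 and Vim. AP-1 (TGANTCA, 6.34% of windows), STAT (TTCNNNGAA, 7.67%), the C/EBP-ATF element (TGATGNAA, 3.4%), E2F (TTTCGCGC, 0.248%) and the p53 half-site (6.64%) had no match in any member's window, and the window of Havcr1, in which bases G and C made up 39.2% beside a median of 51.2%, held none of the 8. A match is a string of letters, not a bound site, and its absence concerns these windows alone.

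Lcn2 encodes lipocalin 2, a siderophore-binding protein of injured distal tubule and of neutrophil granules. Its levels were -1.62, -2.04 and -2.63 with corn oil and -1.28, -1.58 and -1.56 with monuron. The groups did not overlap but nearly touched, with a gap of 1.02-fold, and the corn oil animals spread over 2.01-fold. The log2 fold change was 0.62 ± 0.26 (1.54-fold, 95% interval 0.988 to 2.40) and was not called (adjusted p = 0.295). Neutrophil transcripts were measured beside it. Of 9 neutrophil genes with a probe, 5 passed the filter. Of these 0 were called, beside 1.10% higher and 0.480% lower of all genes with a symbol. At an unadjusted p under 0.05 (limma) 2 were higher, beside 10.4% of all genes with a symbol. The granule gene Elane was not well above background on any array. The neutrophil calgranulin genes S100a8 and S100a9 had log2 fold changes of 1.31 ± 0.38 and 1.15 ± 0.37. All 5 passing neutrophil genes lay above 0, beside 53.1% of all genes with a symbol. The summed level of the neutrophil list, as signal over the array's 75th percentile, ran from 1.68 to 1.97 with corn oil and from 2.09 to 3.83 with monuron, and its part in the Lcn2 values was not tested.

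Clu encodes clusterin, a secreted chaperone, and had no common direction among the monuron animals. Its brighter probe read 3.64, 4.09 and 3.23 with corn oil and 3.33, 3.12 and 4.53 with monuron. The groups overlapped, since monuron replicate 3 was the highest of all 6 arrays and monuron replicate 2 the lowest. The SD of 0.76 among monuron animals was larger than that of 98.5% of the tested probes. The log2 fold change was 0.01 ± 0.42 (95% interval of the fold 0.492 to 2.05, adjusted p = 0.995), and the other probe gave 0.13 ± 0.43. Without monuron replicate 3 the value was -0.43 ± 0.27 (adjusted p = 0.529). Set against the corn oil mean, monuron replicates 1 and 2 lay at 0.798-fold and 0.694-fold and replicate 3 at 1.83-fold.

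Timp1, which inhibits matrix metalloproteinases, differed little. Its levels were 1.25, 1.21 and 1.37 with corn oil and 1.44, 1.56 and 1.64 with monuron, with no overlap and a gap of 1.05-fold. The difference, 0.27 ± 0.08 on the log2 scale (1.21-fold, adjusted p = 0.194), was not called. With spike-in scaling Timp1 was called lower, at -0.23 (adjusted p = 0.0447), as were 28786 of all 41125 probes.

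Cd44 had 6 probes, of which 3 passed the filter and 3 were not well above background on any array. The brightest read -1.74, -1.65 and -1.70 with corn oil and -1.55, -1.44 and -1.56 with monuron. These groups lay side by side without overlap, 1.07-fold apart at their nearest. The log2 fold changes of the passing probes were 0.19 ± 0.07 (adjusted p = 0.248), 0.36 ± 0.09 (0.136) and 0.04 ± 0.14 (0.900), the last with overlapping groups. None was called. Under spike-in scaling the values were -0.32, -0.14 and -0.46, and the brightest probe was called lower (adjusted p = 0.0164). Of all 41125 probes, 28786 were called lower under that scaling.

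The intermediate filament genes split into keratins with fold changes near 1.5 and vimentin near 1. Krt8, a type II keratin of simple epithelia, read 2.13, 2.12 and 1.98 with corn oil and 2.63, 2.72 and 2.52 with monuron. The groups were 1.31-fold apart and each was narrow. The log2 fold change was 0.55 ± 0.08 (1.46-fold, 95% interval 1.27 to 1.68). Its adjusted p was 0.0513 over all probes, just above the threshold, so Krt8 was not called. The adjusted p was 0.0495 where 1 probe per gene was tested, and Krt8 was called in 4 of 23 alternatives. Krt18, the type I keratin that pairs with keratin 8, was measured by 3 probes. The brightest read 3.15, 3.07 and 3.08 with corn oil and 3.75, 4.11 and 3.45 with monuron. The corn oil animals were nearly equal, while the monuron animals spread over 1.57-fold with replicate 2 at the top. The 3 probes gave log2 fold changes of 0.67 ± 0.17, 0.57 ± 0.16 and 0.64 ± 0.16, with adjusted p of 0.134, 0.172 and 0.137, and the groups did not overlap in any of them. Spike-in scaling left 0.04 for Krt8 and between 0.07 and 0.17 for the Krt18 probes.

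Vim, the gene of vimentin, read 0.90, 0.89 and 0.81 with corn oil and 0.90, 0.90 and 1.03 with monuron. The groups overlapped. The log2 fold change was 0.08 ± 0.07 (95% interval of the fold 0.936 to 1.19, adjusted p = 0.607). Under spike-in scaling it was -0.43 and called lower (adjusted p = 0.00336), as were 28786 of all 41125 probes. With the 75th percentile as scale, the interval leaves out rises of the size seen for Gdf15 and Spp1.

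**Figure D3:**
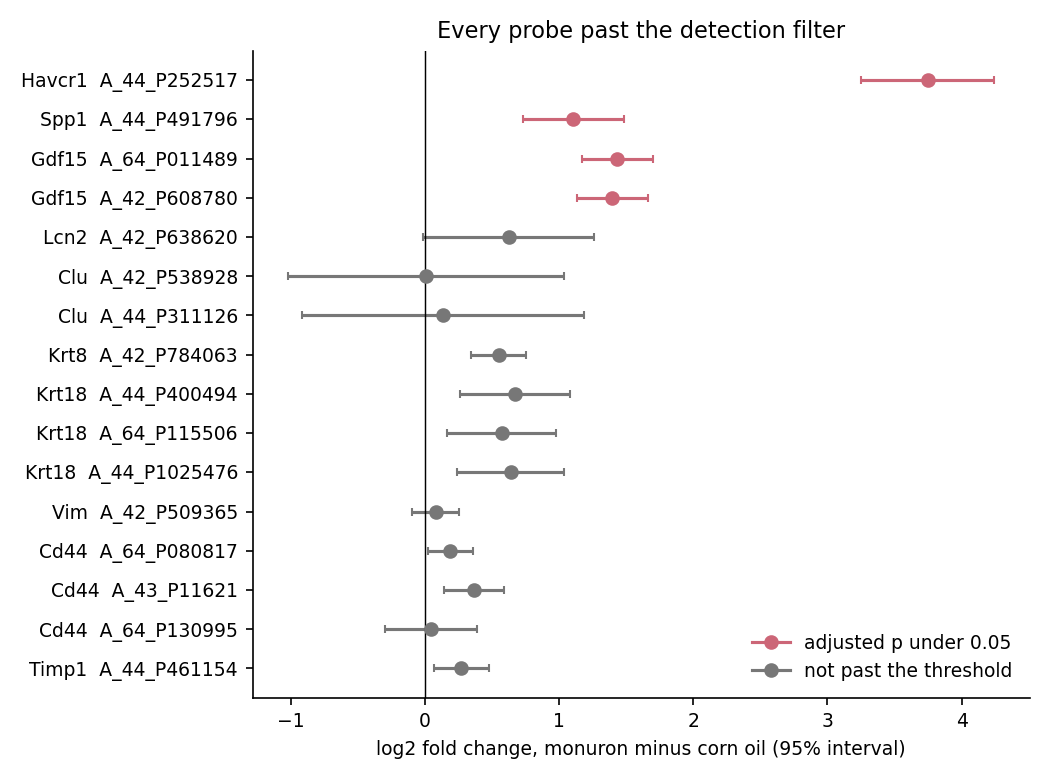
The x axis is the log2 fold change of monuron minus corn oil with its 95% interval, for each of the 16 passing probes on the y axis. Probes of Havcr1, Gdf15 and Spp1 are called, the probes of Krt18 lie within 0.57 to 0.67, and the intervals of Clu and Vim hold 0.

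Probes of 1 gene gave like values for Gdf15, Clu and Krt18. In 16 of the 16 passing probes the log2 fold change was above 0, beside 54.2% of all probes tested. With spike-in scaling 7 of the 16 were below 0, namely both probes of Clu, all 3 of Cd44 and those of Vim and Timp1, and with quantile normalization 1 was, the brighter Clu probe. In all, 4 of the 16 were called higher, 2 of them probes of Gdf15, beside 0.832% of all probes, and 0 lower. The 16 probes measure 10 genes, so probes of 1 gene are not independent in these counts. The groups were apart with monuron above in 12 of the 16, beside 14.9% of all probes, and overlapped in 4, namely both probes of Clu, that of Vim and the faintest passing probe of Cd44.

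Genes linked to these markers were read from lists, each gene by its brightest probe. Of 49 further genes of tubule injury and repair, 44 passed the filter. Of these, 1 rose and 0 fell, beside 1.10% and 0.480% of all genes with a symbol. This gene was S100a10, the annexin A2 partner (1.47-fold, log2 fold change 0.56 ± 0.07, adjusted p = 0.0295). The median was 0.14, with 26 of 44 above 0, and groups were apart in 10 with monuron above, beside 15.7% of all genes, and in 1 with monuron below, beside 12.0%. At an unadjusted p under 0.05, 10 of the 44 were higher and 1 lower, beside 10.4% and 7.71% of all genes, the shares against which the counts of the lists that follow are to be read. The call of S100a10 was lost without any single array. Chosen after their values were seen, Anxa2 stood at 0.38 ± 0.08 (adjusted p = 0.0965) and Krt19, another type I keratin, of 1.30 ± 0.40 (0.189), with its highest value in monuron replicate 2, as for Krt18. Krt7, a keratin of simple epithelia, was at -0.38 ± 0.08 (0.0943).

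Of 19 further genes whose proteins are measured in urine, all passed, with a median of 0.15. Of these, 1 rose and 0 fell, beside 1.10% and 0.480% of all genes with a symbol. At an unadjusted p under 0.05 (limma) 1 was higher and 1 lower. Groups were apart in 1 with monuron above and in 1 with monuron below. The one that rose was Gstp1, a glutathione transferase (3.31-fold, adjusted p = 0.00812). Among the others, named after their values were seen, Tff3, trefoil factor 3, had a log2 fold change of 0.23 ± 0.51, Cst3, cystatin C, of -0.08 ± 0.09, and Egf, the epidermal growth factor gene of the distal nephron, of -0.26 ± 0.13.

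Other partners of the markers gave no calls in limma. Of 16 passing genes among the partners of osteopontin and CD44, 0 were called, with 2 higher and 1 lower at an unadjusted p under 0.05 and a median of -0.04. The 2 smallest p belonged to Hyal1, a hyaluronidase (0.94 ± 0.16, adjusted p = 0.0714), and Fn1, fibronectin (0.22 ± 0.09, 0.265). Of 13 TIMP and metalloproteinase genes 0 were called, with 3 higher and 0 lower unadjusted and a median of -0.04. Mmp16 (0.51 ± 0.13, adjusted p = 0.144) and Adamts1 (0.61 ± 0.17, 0.166) came first.

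The 12 passing genes of other intermediate filaments and their linkers had 0 calls, 3 higher and 2 lower unadjusted, and a median of 0.02. Krt7 and Plec, plectin (0.38 ± 0.08, adjusted p = 0.111), had the smallest p. Among 11 relatives and partners of KIM-1 and lipocalin 2, 0 were called, 0 higher and 4 lower unadjusted, with a median of -0.24. In this list the endocytic receptor genes Cubn (-0.69 ± 0.12, adjusted p = 0.0697) and Lrp2, megalin, which takes up lipocalin 2 (-0.52 ± 0.10, 0.0787), came first. The groups were apart in both, with monuron below. Timd2, a paralog of Havcr1, had a log2 fold change of -0.50 ± 0.39. Of 17 genes of the integrated stress response, a pathway known to act on Gdf15, 0 were called, 2 were higher and 3 lower unadjusted, and the median was 0.08. The 2 higher were Ppp1r15a (0.38 ± 0.08, adjusted p = 0.103) and Asns (0.51 ± 0.12, 0.116). The 3 lower were Shmt2 (-0.41 ± 0.09, 0.104), Phgdh (-0.21 ± 0.06, 0.177) and Psat1 (-0.33 ± 0.13, 0.266). The transcription factor genes Atf4 and Ddit3, chosen after their values were seen, stood at -0.12 ± 0.10 and -0.04 ± 0.09.

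**Figure D4:**
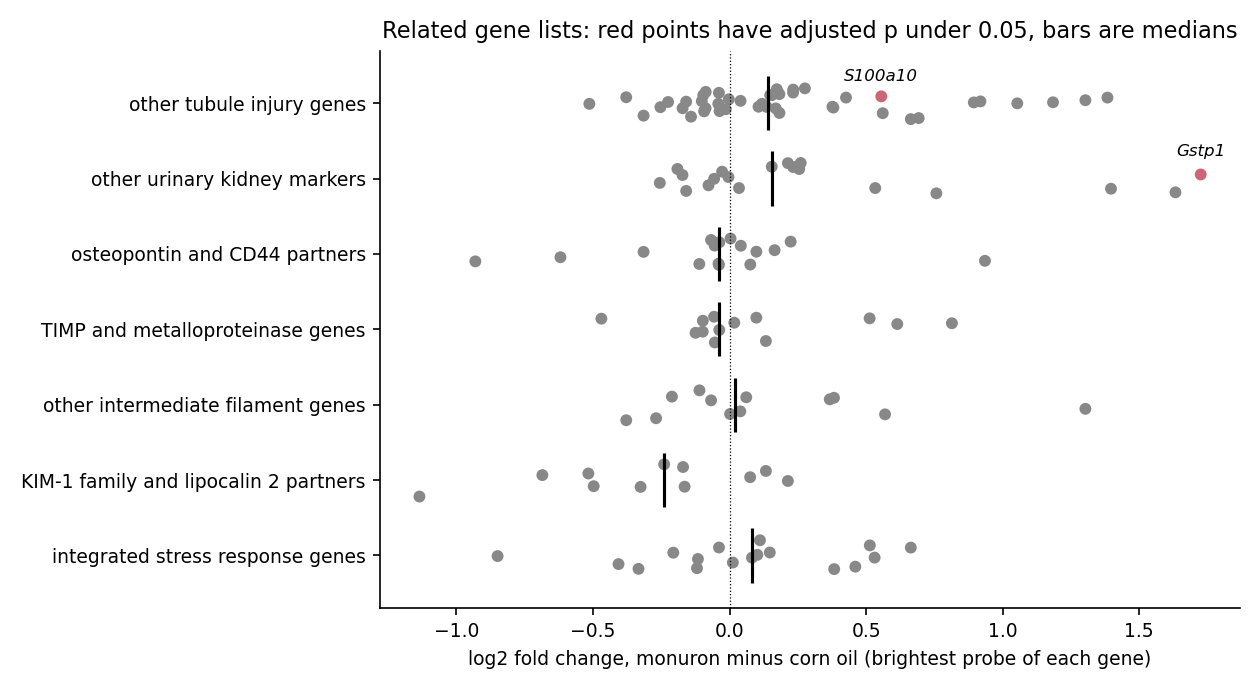
Each point is a gene of the list on the y axis, placed by its log2 fold change of monuron minus corn oil on the x axis, with medians as bars and calls in red. S100a10 and Gstp1 are the called genes, and the list medians lie between -0.24 and 0.15.

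Markers of 14 cell types and tubule segments were read to show which moved beside the injury genes. Of 130 list entries past the filter 5 were called, all higher, beside 1.10% of all genes with a symbol. All 5 were in the red cell list, where 8 of 8 genes had groups apart with monuron above, beside 15.7%. The summed level of that list ran from 647 to 889 with corn oil and from 1521 to 1635 with monuron, and its most abundant members were Hba-a1, Hbb-b1 and Hbb. The hepatocyte list had 14 passing genes, 0 calls, 1 gene higher at an unadjusted p under 0.05 and a median of 0.77, and its sum ran from 20.9 to 42.4 and from 29.3 to 64.6. The red cell list's part in the injury gene values was not tested. With the mean hepatocyte level as a covariate the log2 fold change was 3.89 for Havcr1, 1.52 for Gdf15 and 1.25 for Spp1. Spp1 was then not called (adjusted p = 0.0751), and the probes called higher and lower numbered 122 and 18.

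Leukocytes, stroma and endothelium also express Cd44, Vim and Timp1, as background. The 12 macrophage genes had a median of -0.32 and a summed level of 88.9 to 141 with corn oil and 81.1 to 104 with monuron. T and B cell genes stood at -0.49, endothelial genes at -0.16, podocyte genes at -0.20 and fibroblast and myofibroblast genes at 0.09. Among tubule segments the medians were -0.14 for proximal S1 and S2, 0.19 for proximal S3, -0.0021 for the thick ascending limb, -0.08 for distal convoluted and connecting tubule and -0.04 for collecting duct. The urothelium and papilla list stood at 0.24 with 6 passing genes, its brightest gene Upk1b at a level of -2.87 in each group, and the neutrophil list at 0.28. Except for red cells, each of these lists had 0 calls in limma, and at an unadjusted p under 0.05 there were between 0 and 2 genes higher and between 0 and 4 lower per list. The most lower were 4 of 6 T and B cell and 4 of 12 proximal S1 and S2 genes, beside 7.71% of all genes with a symbol. In these lists 4 and 5 genes had groups apart with monuron below, beside 12.0%. The most higher were 2 of 5 neutrophil, 2 of 6 urothelium and papilla and 2 of 13 collecting duct genes, beside 10.4%. Each of these lists had 2 genes with groups apart and monuron above, beside 15.7%.

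**Figure D5:**
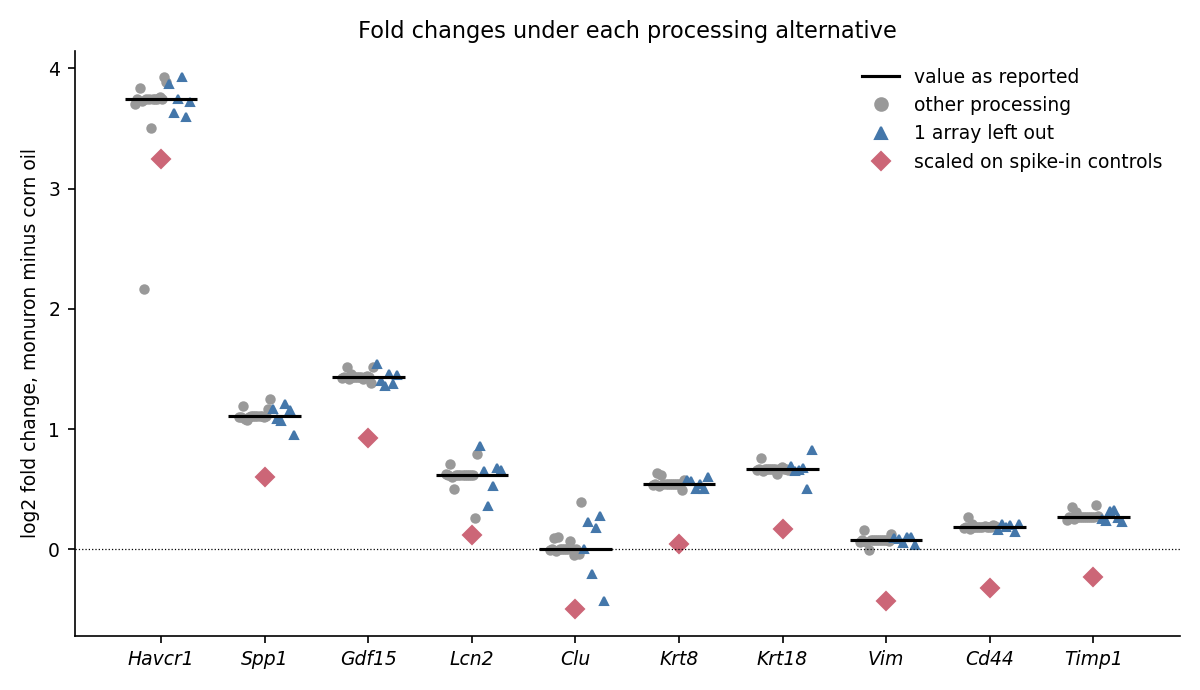
The y axis is the log2 fold change of monuron minus corn oil for the brightest probe of each gene on the x axis, where a line marks the reported value, circles other processing, triangles the values with 1 array left out and diamonds scaling on spike-in controls. Havcr1, Gdf15 and Spp1 stay above 0 everywhere, and Vim, Cd44, Timp1 and Clu are below 0 with spike-in scaling.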

How the data were processed

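Transcripts were measured in renal cortex of 6 rats, 3 per group, with groups and doses taken from the labels. The deposited scanner files hold spot intensity on a linear scale. Per the submitters' processing notes, Agilent Feature Extraction 10.7 made them, and the array design cites build rn4. The value table the authors deposited gives a ratio on a linear scale. Its values of at least 0.1 equal the processed signal over 1 constant per array within 0.0497%, so its scale is settled, and its column medians ran from 0.1085 to 0.1121. Genes were named by unversioned accession from a RefSeq table (GRCr8), which covered 28206 of 61537 non-control probes (45.8%). The 1439 control spots and the 55 non-control spots marked as outliers were left out, none of the latter in a member.

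Log2 levels were taken against each array's 75th percentile. The 41125 probes past the detection filter were tested two-sided by lmFit and eBayes (limma 3.58.1, R 4.3.3), with Benjamini-Hochberg adjustment over all of them and a threshold of 0.05. The functions were tested on simulated arrays. Fold change errors are SE and level errors SD. Only 3 arrays per group limit the precision.

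Members and lists were chosen with earlier results of these data known. Named are all members, of each list the called genes or otherwise the 2 with the smallest p, of cell type lists the most abundant, the 5 probes most like Havcr1, and Alb. Anxa2, Krt19, Tff3, Cst3, Egf, Elane, Timd2, Asns, Phgdh, Psat1, Atf4 and Ddit3 fall outside this rule and were chosen after their values were seen. Alternatives covered scaling, background correction, the authors' table, detection, low values, probe choice, the variance model, liver transcripts, a replicate block and leaving out arrays. Protein sequences were not used here.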

Additional observations from a re-analysis of the deposited data

How the results depend on the processing

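Over 23 alternatives (22 for Havcr1, which did not pass detection on all 6 arrays), Havcr1 was called in 19, Gdf15 in 18 and Spp1 in 13, and their log2 fold changes stayed above 0, from 2.17 (normexp with its offset of 50) to 3.93, 0.93 to 1.54 and 0.60 to 1.25. Spike-in scaling shifted the median of all probes by -0.50, which set Clu (-0.50), Vim (-0.43), Cd44 (-0.32) and Timp1 (-0.23) below 0, called 3 members lower and 0 other injury genes higher, and gave 28786 probes lower. The cause of a changed call was not tested. No scaling gave 78 lower. Normexp gave 542 higher, 390 lower, 2 other injury genes, Krt8 at 0.62 (adjusted p = 0.0156, called) and Vim at -0.0023. Clu also turned to -0.0048 with quantile normalization, -0.011 with the percentile of detected probes, -0.044 with array weights and -0.038 with the 2 Alb-rich arrays left out. Krt8, at 0.55, was called with detection on all 6 arrays (adjusted p = 0.0410), 1 probe per gene (0.0495) and trended robust eBayes (0.0161). The last gave 587 probes higher, 371 lower and 2 other injury genes, as did the mean of a gene's probes for injury genes (2). Without a detection filter 86 and 30 probes and 0 other injury genes were called, and Spp1 (1.11) was not (adjusted p = 0.118). A hepatocyte covariate gave 122, 18 and 0, and Spp1 at 1.25 was not called (0.0751). Leaving out those 2 arrays, 0, 0 and 0 were called, with 5564 probes at an unadjusted p under 0.05, and 0 members: Havcr1 was at 3.93, Spp1 at 1.17 and Gdf15 at 1.38 (adjusted p = 0.137, 0.208 and 0.145).

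The correlations of deviations from the group mean were -0.08, 0.10 and -0.16 for arrays with the same replicate number. For arrays with different numbers they ran from -0.13 to 0.22. With 3 arrays a group these values cannot settle whether the replicate number pairs the animals. With the number as a block, limma called 0 probes higher, 0 lower, 0 members and 0 other injury genes, with 6179 at an unadjusted p under 0.05. Havcr1 (3.75), Spp1 (1.11) and Gdf15 (1.43) then had adjusted p of 0.0638, 0.163 and 0.0877.

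Without 1 array in turn, 19 to 153 probes were higher and 2 to 37 lower, 0 to 2 members and 0 to 0 other injury genes were called, and log2 fold changes ran from 3.60 to 3.93 for Havcr1, 0.95 to 1.21 for Spp1, 1.36 to 1.54 for Gdf15 and -0.43 to 0.27 for Clu. The lowest counts were those without monuron replicate 3. With 3 arrays a group and faint corn oil spots, the Havcr1 fold rests on signals near background.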
